A study of Mus musculus with 18 samples.

Results

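The RNA of 9 genes that make, sense, relay or dispose of cyclic dinucleotides was followed in 18 B16F10 mouse melanomas injected with a STING agonist or with a control. The 9 genes were listed by name, with earlier results of these data known. All 9 were found among the 50600 genes of the count table. B16F10 is a melanoma line of C57BL/6 mice, and the tumors were grown under the skin of the right flank. Every group held 2 tumors, collected 24 h after the last injection, and a second dose, where given, followed the first by 3 days.

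After 1 dose the groups were PBS, unloaded EVs (titled Exo), 20 µg or 100 µg of free CDN2, and exoCDN2. After 2 doses they were PBS, 20 µg of free CDN2, exoCDN2, and free CDN2 in 2 tumors whose titles give no amount. CDN2, titled CL656, is a cyclic dinucleotide agonist of STING, and exoCDN2, titled exoCL656, is 0.1 µg of it carried by extracellular vesicles (EVs) from HEK293 cells engineered to overexpress PTGFRN. Loaded and free agonist were thus compared at unequal amounts, no group of unloaded EVs was available at 2 doses, and the number of doses went with the day of collection. Each value is the RNA of a whole tumor, so that fewer cells of a type and less RNA per cell cannot be told apart, and the 2 tumors of a group are called biological replicates by the study. Summed melanocyte markers were high in every tumor, between 6810 and 24670 CPM (counts scaled by each tumor's total and its TMM factor), the lineage of the labelled tissue.

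cGAS, encoded by Mb21d1 (Cgas in newer annotation), binds DNA in the cytosol and makes cyclic GMP-AMP, which binds STING, encoded by Tmem173 (now Sting1), on the endoplasmic reticulum. STING then moves towards the Golgi and recruits the kinase TBK1 or its relative IKKε (Ikbke), which phosphorylates IRF3 and thereby switches on interferon β and other antiviral genes. TREX1 is an exonuclease that degrades cytosolic DNA before cGAS meets it, and ENPP1 hydrolyses cyclic GMP-AMP outside cells. The folate carrier SLC19A1 and the volume-regulated anion channel subunit LRRC8A have both been described as routes by which cyclic dinucleotides cross the plasma membrane. The tumors were sequenced to compare the immune pathways engaged by loaded and by free agonist, and the same comparisons are made here for the genes of the pathway itself.

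In the PBS tumors the genes stood at very different levels per kilobase of their longest coding transcript. Tmem173 was the most abundant, at a median of 24.2 CPM per kilobase over the 4 PBS tumors, followed by Irf3 at 18.5 and Tbk1 at 11.6. Ikbke stood at 6.61, Slc19a1 at 5.69, Lrrc8a at 5.15 and Trex1 at 4.22 CPM per kilobase. The sensor Mb21d1 was at 2.61 and the ectoenzyme Enpp1 at 0.667 CPM per kilobase, the lowest of the 9. The ranges of Irf3 (18.2 to 22.4) and Tmem173 (21.5 to 24.6) overlapped, as did those of Ikbke (6.11 to 7.17), Slc19a1 (4.71 to 7.94) and Lrrc8a (4.53 to 6.99). The range of Trex1 (2.77 to 5.48) overlapped those of Slc19a1 and Lrrc8a.

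**Figure D1:**
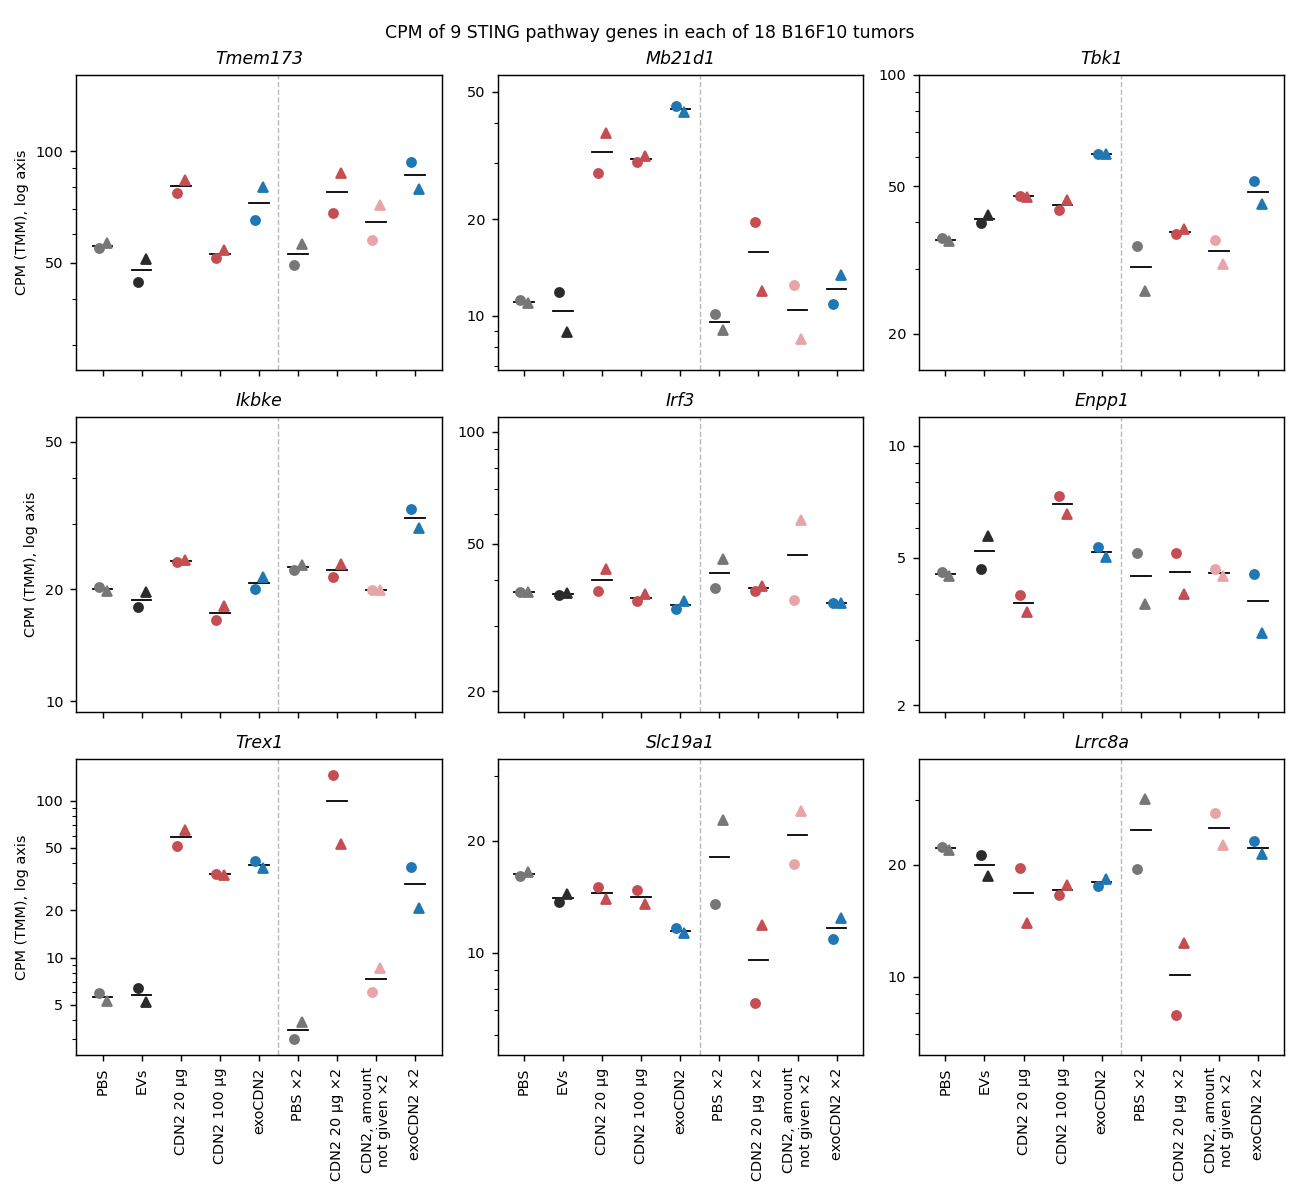
CPM on a log axis (vertical) of the 9 genes in each tumor (circle, replicate 1; triangle, replicate 2; black line, mean of 2 tumors) for the 9 groups (horizontal), with 1-dose groups left of the dashed line. Trex1 lies at 20.6 CPM or more in the 10 tumors given a stated amount of agonist and at 6.40 CPM or less in the 6 control tumors, and Mb21d1 is high mainly after 1 dose.

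Trex1 had the widest range of the 9 genes, 49.0-fold from the lowest to the highest tumor. It was at 5.94 and 5.28 CPM after 1 dose of PBS and at 6.40 and 5.21 CPM after unloaded EVs. One dose of CDN2 brought 51.5 and 65.5 CPM at 20 µg and 34.3 and 33.7 CPM at 100 µg, and 1 dose of exoCDN2 brought 41.0 and 37.1 CPM. The 6 agonist tumors all lay above the 4 controls of that day. In what follows, a gene is said to have changed, risen or fallen where edgeR's quasi-likelihood test, adjusted by Benjamini-Hochberg over all 16927 genes tested, gave p under 0.05 and the ratio exceeded 2. By that rule Trex1 (chr9:109057933-109059734, minus strand, GRCm38) rose with 20 µg of CDN2 (log2 fold change 3.38, SE 0.43, adjusted p = 0.00093), with exoCDN2 (2.80, SE 0.42, adjusted p = 0.0029) and with 100 µg of CDN2 (2.61, SE 0.42, adjusted p = 0.0062) relative to PBS.

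After 2 doses Trex1 stood at 3.00 and 3.87 CPM in the PBS tumors, 147.1 and 53.2 CPM with 20 µg of CDN2, and 37.9 and 20.6 CPM with exoCDN2. No tumor of either agonist overlapped with PBS. Trex1 rose 30.6-fold with CDN2 (log2 4.94, SE 0.47, adjusted p = 2.6e-05) and 8.46-fold with exoCDN2 (log2 3.08, SE 0.43, adjusted p = 0.00056). The CDN2 value was 3.97 on the log2 scale without replicate 1, the tumor at 147.1 CPM, and 5.49 without replicate 2. Trex1 was lower with exoCDN2 than with CDN2 (log2 -1.86, SE 0.40, adjusted p = 0.006), a call that was lost (log2 -0.91, adjusted p = 0.0501) without the CDN2 tumor at 147.1 CPM. Without the lower exoCDN2 tumor the same difference was -1.48 (adjusted p = 0.0614). The gain of Trex1 over PBS from the first to the second dose did not pass the test for CDN2 (1.55, SE 0.57, adjusted p = 0.071) or for exoCDN2 (0.29, SE 0.57, adjusted p = 0.83). In the 2 tumors with no stated amount Trex1 was at 6.03 and 8.52 CPM, above the 2-dose PBS tumors but without passing the test (log2 1.08, SE 0.41, adjusted p = 0.36). The lower of them fell within the 1-dose control range.

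All 1147 exonic bases of Trex1 lie inside the models of Atrip on the same strand, so that reads could be assigned to either gene. Atrip, which encodes a partner of the DNA damage kinase ATR, did not follow Trex1. It was at 11.1 to 12.6 CPM in the 1-dose PBS tumors and 11.3 to 14.7 CPM with 1 dose of exoCDN2. With 2 doses it was at 12.15 and 14.17 CPM for PBS and at 3.81 and 9.86 CPM for CDN2, the group in which Trex1 was highest. The latter difference was -0.88 on the log2 scale (SE 0.31, edgeR adjusted p = 0.034), under the 2-fold limit used here. The part of the split of reads between the 2 genes was not tested.

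Mb21d1 (chr9:78430526-78443237, minus strand) also rose after a single dose. It was at 11.2 and 10.97 CPM with PBS and 11.9 and 8.91 CPM with unloaded EVs. One dose gave 27.9 and 37.1 CPM with 20 µg of CDN2, 30.2 and 31.4 CPM with 100 µg, and 45.2 and 43.2 CPM with exoCDN2. All 6 agonist tumors were above every control tumor. Mb21d1 rose 3.98-fold with exoCDN2 (log2 1.99, SE 0.25, adjusted p = 0.00076), 2.93-fold with 20 µg of CDN2 (1.55, SE 0.24, adjusted p = 0.0038) and 2.80-fold with 100 µg (1.49, SE 0.24, adjusted p = 0.0069). ExoCDN2 was higher than 20 µg of CDN2 in both tumors, but that difference did not pass the test (0.44, 95% interval -0.08 to 0.96, adjusted p = 0.33).

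After 2 doses Mb21d1 was at 10.2 and 9.05 CPM with PBS, 19.7 and 11.96 CPM with CDN2, and 10.9 and 13.4 CPM with exoCDN2. The CDN2 tumors exceeded PBS by 1.71-fold (log2 0.78, SE 0.24, adjusted p = 0.02), past the p limit but under the ratio limit. Without CDN2 replicate 1, the tumor at 19.7 CPM, that difference was 0.34 (adjusted p = 0.23), and without replicate 2 it was 1.11 (adjusted p = 0.000856), past both limits. Without PBS replicate 2 it was 0.69 (adjusted p = 0.0918). The exoCDN2 tumors were at a log2 difference of 0.33 (SE 0.24, adjusted p = 0.39). The change over PBS was smaller after the second dose of exoCDN2 than after the first, by 1.66 on the log2 scale (SE 0.34, adjusted p = 0.012). For CDN2 the same comparison gave -0.77 (SE 0.34, adjusted p = 0.12). The exoCDN2 result stayed between -1.82 and -1.52 with any 1 tumor left out, but its adjusted p passed 0.05 without 1-dose exoCDN2 replicate 1 (0.0536), without 1-dose PBS replicate 2 (0.0619) and without 2-dose exoCDN2 replicate 1 (0.0707). Of Mb21d1's exonic bases, 4.9% overlap Gm8093, a pseudogene on the opposite strand.

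Between them, Trex1 and Mb21d1 accounted for every change after 1 dose. With 20 µg of CDN2 2 of 9 genes rose and none fell, where 3.14% of all tested genes changed. With exoCDN2 2 of 9 rose, against 2.62% of all genes, and with 100 µg of CDN2 2 of 9 rose, against 2.44%. Relative to unloaded EVs, exoCDN2 raised the same 2 genes, Mb21d1 by 2.08 (SE 0.25, adjusted p = 0.00044) and Trex1 by 2.74 (SE 0.42, adjusted p = 0.0031) on the log2 scale, against 2.95% of all genes. Unloaded EVs relative to PBS changed 0 of the 9 genes, and 0.00% of all genes, with every adjusted p of the 9 at 1. At an unadjusted p under 0.05 the EV comparison held 540 of all genes and 0 of the 9, and DESeq2 also called 0 of the 9. The PBS level in the 1-dose comparisons rests on 2 tumors. Without PBS replicate 1 or without PBS replicate 2, the adjusted p of Mb21d1 for 20 µg of CDN2 was 0.0567 or 0.0618, that of Trex1 for exoCDN2 was 0.051 or 0.0675, and neither gene passed for 100 µg. Trex1 against unloaded EVs had an adjusted p of 0.0566 without EV replicate 2.

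**Figure D2:**
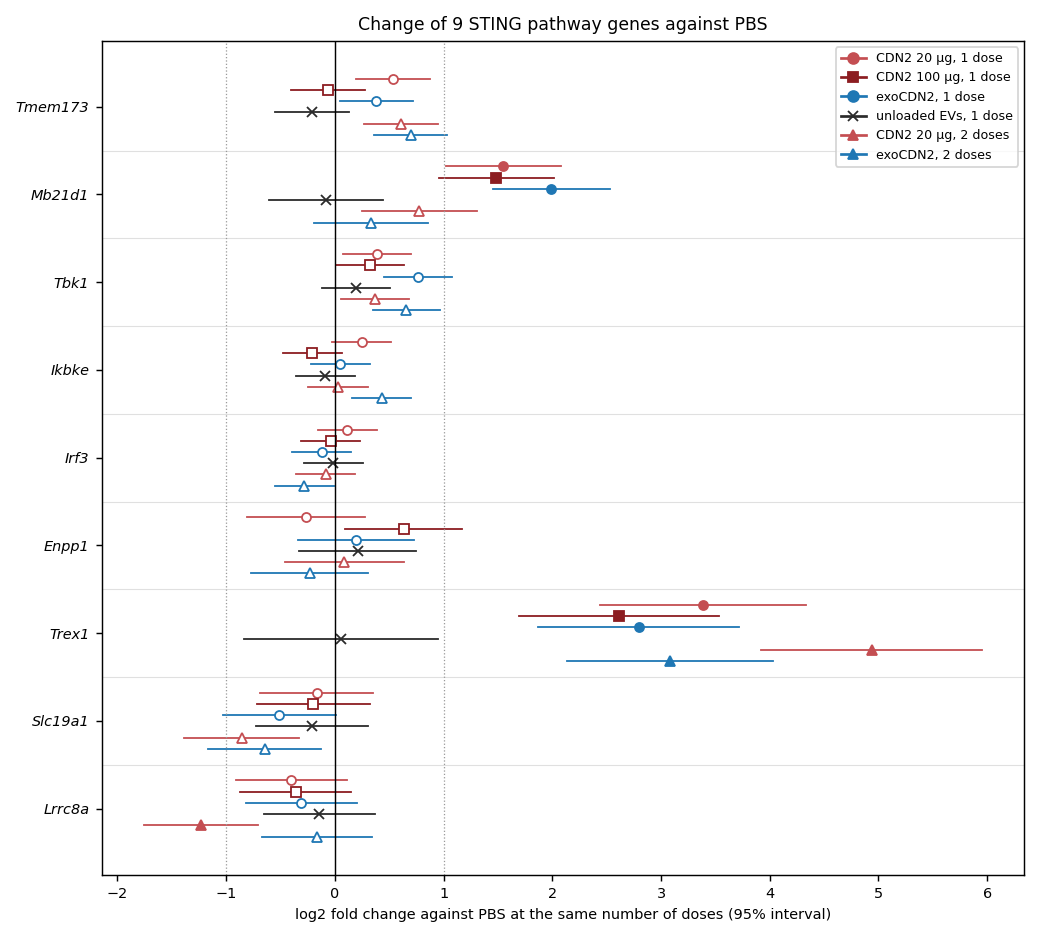
Log2 fold change against PBS at the same number of doses (horizontal, 2 tumors a group) for the 9 genes (vertical), with lines as 95% intervals, filled symbols for genes that changed (adjusted p under 0.05 and ratio over 2), crosses for unloaded EVs, and dotted lines at the ratio limit. Trex1 lies to the right of the limit in all 5 agonist comparisons, Mb21d1 after 1 dose only, and Lrrc8a passes to the left only after 2 doses of CDN2.

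Tmem173, the STING gene, shifted by less than 2-fold in every comparison. Its CPM were 54.8 and 56.5 with 1 dose of PBS, 77.2 and 83.8 with 20 µg of CDN2, 65.2 and 80.0 with exoCDN2, and 51.7 and 54.2 with 100 µg of CDN2. The 100 µg tumors were thus below both PBS tumors, whereas those of the lower amount were above them. Relative to PBS the log2 differences were 0.53 (SE 0.16, adjusted p = 0.089) with 20 µg, 0.38 (SE 0.16, adjusted p = 0.25) with exoCDN2 and -0.06 (SE 0.16, adjusted p = 0.92) with 100 µg. The difference between 100 µg and 20 µg was -0.59 (95% interval -0.93 to -0.26, adjusted p = 0.093), which missed the limit.

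After 2 doses Tmem173 was at 49.4 and 56.3 CPM with PBS, 68.0 and 87.6 CPM with CDN2 and 93.3 and 79.2 CPM with exoCDN2. Both agonist groups lay above PBS, by a log2 difference of 0.61 (SE 0.16, adjusted p = 0.007) with CDN2 and 0.70 (SE 0.16, adjusted p = 0.0091) with exoCDN2. The CDN2 difference was 0.43 without CDN2 replicate 2, and the exoCDN2 difference was 0.57 without exoCDN2 replicate 1. Neither difference passed the p limit in every alternative fit. The agonist groups overlapped with each other (0.08, 95% interval -0.25 to 0.42). Summed macrophage markers, a cell type with much STING, were also higher in those tumors, at 224.9 to 302.7 CPM with CDN2 and 200.4 to 290.8 CPM with exoCDN2, against 98.2 to 117.9 CPM with PBS. After 1 dose the sums were 176.7 and 228.6 CPM with PBS and 104.6 and 241.8 CPM with unloaded EVs. They were 162.3 and 316.4 CPM with 20 µg of CDN2, 156.8 and 171.7 CPM with 100 µg and 137.2 and 136.4 CPM with exoCDN2. Of the 5 macrophage markers 3 rose and 1 fell with 2 doses of CDN2, and 2 rose with 2 doses of exoCDN2. After 1 dose 0 of the 5 macrophage markers changed with any agonist. Their part in the result was not tested.

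Among the kinases, Tbk1 was highest where the agonist was in vesicles. After 1 dose it was at 36.2 and 35.6 CPM with PBS, 39.9 and 41.9 CPM with unloaded EVs, 47.1 and 46.8 CPM with 20 µg of CDN2, 43.1 and 46.1 CPM with 100 µg, and 61.3 and 61.1 CPM with exoCDN2. The exoCDN2 tumors were above all others in that day's set. The log2 difference from PBS was 0.77 (SE 0.14, adjusted p = 0.01) for exoCDN2, 0.39 (SE 0.14, adjusted p = 0.19) for 20 µg and 0.32 (SE 0.14, adjusted p = 0.3) for 100 µg. From unloaded EVs it was 0.57 (SE 0.14, adjusted p = 0.048). Tbk1 thus made 3 of 9 genes past the p limit alone for exoCDN2 against PBS, where 3.26% of all genes were, and 3 of 9 against EVs, where 3.66% were. With 1 tumor left out the Tbk1 difference stayed between 0.75 and 0.78 against PBS and between 0.54 and 0.60 against EVs. Neither call of Tbk1 at the p limit held in every alternative fit. The direct difference between exoCDN2 and 20 µg of CDN2 after 1 dose did not pass (0.38, 95% interval 0.07 to 0.69, adjusted p = 0.17).

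After the second dose Tbk1 was at 34.6 and 26.2 CPM with PBS, 37.1 and 38.3 CPM with CDN2 and 51.8 and 44.7 CPM with exoCDN2. All 4 agonist tumors exceeded both PBS tumors, with log2 differences of 0.66 (SE 0.14, adjusted p = 0.0076) for exoCDN2 and 0.37 (SE 0.14, adjusted p = 0.048) for CDN2. The latter missed the p limit without CDN2 replicate 1 (adjusted p = 0.0958), CDN2 replicate 2 (0.0688) or PBS replicate 2 (0.275). The 2 agonist groups differed by 0.29 (95% interval -0.02 to 0.60, adjusted p = 0.12).

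Ikbke, the second kinase, stayed between 16.5 and 24.0 CPM in every tumor except those given 2 doses of exoCDN2, which were at 33.0 and 29.4 CPM. Their log2 difference from PBS (22.6 and 23.3 CPM) was 0.43 (SE 0.12, adjusted p = 0.032), and from CDN2 (21.7 and 23.4 CPM) it was 0.40 (SE 0.12, adjusted p = 0.027). Both were under the ratio limit. With 1 tumor left out, the adjusted p of the difference from PBS stayed under 0.05 only without exoCDN2 replicate 2 (0.0452), and that of the difference from CDN2 only without CDN2 replicate 2 (0.0209). The same exoCDN2 tumors held the most leukocyte RNA, with the pan-leukocyte gene Ptprc at 112.5 and 76.9 CPM where no other tumor exceeded 43.5 CPM. Their T cell markers summed to 23.9 and 18.2 CPM, against at most 7.56 CPM elsewhere, and their NK cell markers to 9.34 and 6.19 CPM, against at most 3.51 CPM. Relative to PBS 3 of 4 T cell and 2 of 2 NK cell markers rose in them, and their part in the Ikbke result was not tested. After 1 dose Ikbke was at 16.5 and 18.03 CPM with 100 µg of CDN2 and at 23.7 and 24.0 CPM with 20 µg, a log2 difference of -0.46 (SE 0.13, adjusted p = 0.11).

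Irf3, the transcription factor at the end of the relay, varied least, 1.74-fold over all 18 tumors. Control tumors held 36.3 to 45.5 CPM and agonist tumors of stated amount 33.3 to 42.7 CPM. Its largest difference from PBS was -0.28 (95% interval -0.55 to -0.01, adjusted p = 0.15) after 2 doses of exoCDN2. The highest single value, 57.9 CPM, was in 1 of the 2 tumors with no stated amount, whose partner was at 35.2 CPM. Bcl2l12, on the opposite strand, shares 2.6% of the exonic bases of Irf3 and was at 5.71 to 8.64 CPM.

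Of the genes for hydrolysis and entry of cyclic dinucleotides, Lrrc8a changed relative to PBS in 1 comparison, and Enpp1 and Slc19a1 in none. Enpp1 was scarce, at 97 to 301 reads per tumor, and was highest after 100 µg of CDN2, at 7.34 and 6.57 CPM against 4.58 and 4.46 CPM with PBS and 3.96 and 3.56 CPM with 20 µg. No other group reached the 100 µg tumors, yet neither the difference from PBS (log2 0.63, SE 0.25, adjusted p = 0.23) nor that from 20 µg (0.90, 95% interval 0.35 to 1.44, adjusted p = 0.11) passed the test. Summed fibroblast markers were at 355.4 and 314.1 CPM with 100 µg and 160.0 and 193.0 CPM with PBS, and 0 of the 4 markers changed. With 2 doses of CDN2 they were at 1510 and 577.7 CPM, where Enpp1 was at 5.13 and 3.99 CPM. The part of fibroblasts in the Enpp1 values was not tested.

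Slc19a1 was at 13.5 and 22.7 CPM after 2 doses of PBS, 7.30 and 11.9 CPM after CDN2 and 10.9 and 12.4 CPM after exoCDN2. All 4 agonist tumors were below both PBS tumors. The log2 difference from PBS was -0.86 (SE 0.24, adjusted p = 0.012) with CDN2 and -0.65 (SE 0.24, adjusted p = 0.083) with exoCDN2, and that between the agonist groups was 0.21 (95% interval -0.31 to 0.74, adjusted p = 0.5). With 1 tumor left out, the CDN2 difference passed both limits without CDN2 replicate 2 (-1.24, adjusted p = 0.00195) or PBS replicate 1 (-1.18, adjusted p = 0.00267). It missed the p limit without CDN2 replicate 1 (-0.59, adjusted p = 0.0768) or PBS replicate 2 (-0.44, adjusted p = 0.13). The exoCDN2 difference was -0.97 without PBS replicate 1 (adjusted p = 0.0119) and -0.22 without PBS replicate 2. After 1 dose exoCDN2 tumors were at 11.6 and 11.3 CPM against 16.1 and 16.5 CPM with PBS (-0.51, SE 0.24, adjusted p = 0.32).

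Lrrc8a (chr2:30237715-30263790, plus strand) fell with 2 doses of CDN2 and not with exoCDN2. It was at 19.5 and 30.1 CPM with PBS, 7.89 and 12.3 CPM with CDN2 and 23.2 and 21.3 CPM with exoCDN2. The CDN2 tumors were the lowest of all 18. Relative to PBS the log2 fold change was -1.23 (SE 0.24, adjusted p = 0.0015) with CDN2 and -0.17 (SE 0.23, adjusted p = 0.68) with exoCDN2, and exoCDN2 exceeded CDN2 by 1.07 (SE 0.24, adjusted p = 0.0068). Without CDN2 replicate 1 the first became -0.99 and without PBS replicate 2 it became -0.89, both under the ratio limit. Without CDN2 replicate 1 the last became 0.81 (adjusted p = 0.0501). A single dose of CDN2 gave 19.6 and 13.9 CPM against 22.4 and 21.99 CPM with PBS (-0.40, SE 0.23, adjusted p = 0.45). The readthrough gene Gm28035 shares 66.2% of the exonic bases of Lrrc8a on the same strand and held at most 0.920 CPM in any tumor.

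With 2 doses the counts of changed genes were thus 1 higher and 1 lower of 9 for CDN2, where 30.6% of all genes changed, and 1 higher for exoCDN2, where 11.3% changed. At the p limit alone they were 4 higher and 2 lower for CDN2, against 50.3% of all genes, and 4 higher for exoCDN2, against 17.9%. Between exoCDN2 and CDN2, Lrrc8a was higher and Trex1 lower, against 19.4% of all genes changed, and 3 of 9 passed the p limit alone, against 37.4%. With both limits applied, the share of the 9 genes was below that of all genes for CDN2 and near it in the other 2 comparisons, so that these counts are no result about the 9 as a set. None of the 9 changed between exoCDN2 and 20 µg of CDN2 after 1 dose (0.608% of all genes) or between 100 µg and 20 µg of CDN2 (0.455%). None changed between 2 and 1 doses of PBS (1.10%), and DESeq2 also gave 0 in each. At unadjusted p under 0.05 these comparisons held, in that order, 1, 3 and 0 of the 9. Of all 16927 genes they held 3300, 2797 and 1768. In the contrast of the second with the first dose relative to PBS, 1 of 9 was lower for exoCDN2 (6.82% of all genes). For CDN2, 0 of 9 changed (16.8%), and DESeq2 called 1, Trex1. At unadjusted p under 0.05 the CDN2 contrast held 3 of the 9 and 6279 of all 16927 genes. The tumors with no stated amount differed from PBS in 0 of the 9 (0.959%), and in 0 by DESeq2. At unadjusted p under 0.05 they differed in 1 of the 9 and in 1787 of all 17110 genes.

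The tumors given 2 doses of 20 µg CDN2 also differed from the others in what tissue they held. Their summed melanocyte markers were 6810 and 12370 CPM, against 23110 and 23360 CPM with PBS and 14660 and 15860 CPM with exoCDN2. The 4 neutrophil markers summed to 782.4 and 185.4 CPM with CDN2, 57.3 and 17.5 CPM with exoCDN2 and 1.88 and 1.54 CPM with PBS. Skeletal muscle markers summed to 3055 and 1475 CPM with CDN2 against 97.0 and 179.3 CPM with PBS, and fibroblast markers to 1510 and 577.7 CPM against 194.1 and 174.4 CPM. By count, 4 of 6 melanocyte markers fell, and 4 of 4 neutrophil, 3 of 3 muscle and 3 of 4 fibroblast markers rose with CDN2, and all defining markers of these lists were detected in it. Replicate 1 of that group, which held the highest Trex1 and the lowest Slc19a1 and Lrrc8a, had the most neutrophil, muscle and fibroblast and the least melanocyte RNA, and the smallest library, 21608895 expected counts where the other tumors had 38671428 to 65983630. The part of these tissues in the 2-dose values of the 3 genes was not tested. After 1 dose, summed melanocyte markers were between 19610 and 22220 CPM in every tumor, and 1 of the 6 markers fell with 20 µg of CDN2. Neutrophil markers summed to 4.40 and 4.74 CPM with 1 dose of PBS, 12.1 and 28.3 CPM with 20 µg of CDN2, 12.9 and 15.9 CPM with 100 µg and 59.5 and 36.03 CPM with exoCDN2. Of the 4 neutrophil markers 1 rose with 20 µg and 2 with exoCDN2, while 3 of 3 endothelial markers fell with 20 µg and 2 of 4 T cell markers fell with 100 µg. Their part in the 1-dose results was not tested.

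**Figure D3:**
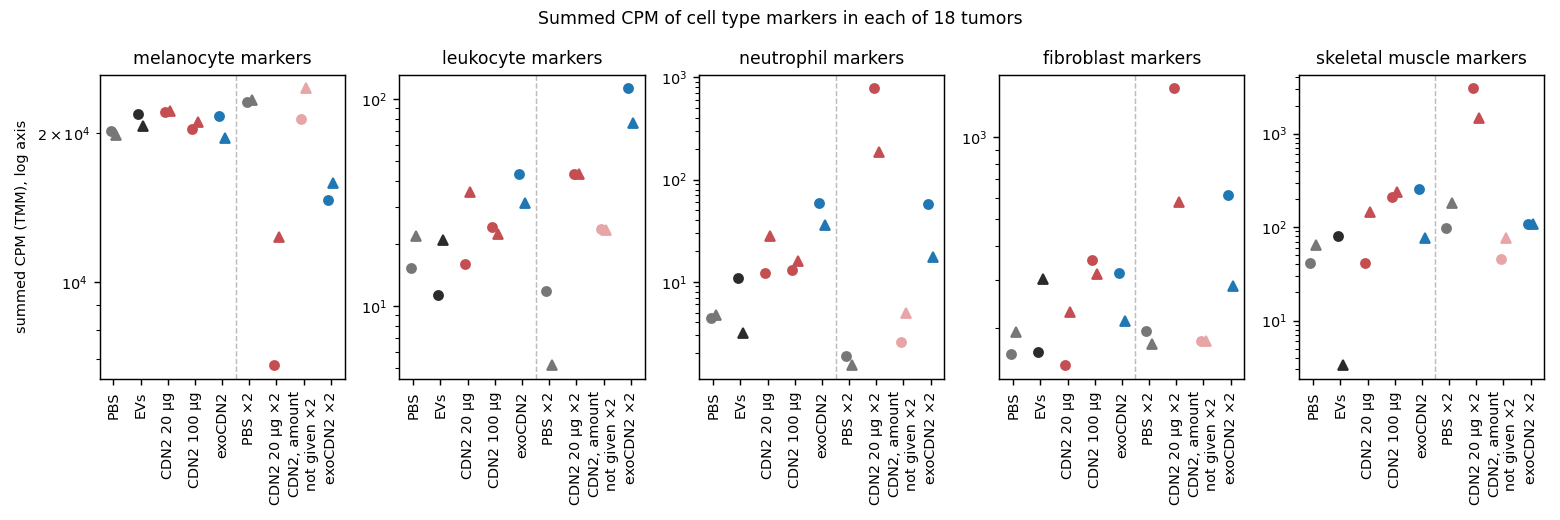
Summed CPM (vertical, log axis) of the markers of 5 cell types in each tumor (circle, replicate 1; triangle, replicate 2) for the 9 groups (horizontal), with 1-dose groups left of the dashed line. The 2 tumors given 2 doses of 20 µg CDN2 have the least melanocyte RNA, 6810 and 12370 CPM, and the most neutrophil, fibroblast and muscle RNA, apart from fibroblast RNA in 1 tumor given 2 doses of exoCDN2.

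Around the 9 genes, 79 further genes of the pathway were listed in 6 groups, of which 78 were tested. In all, 14 rose and 0 fell with 1 dose of CDN2 at 20 µg, 13 rose and 1 fell with 1 dose of exoCDN2, 17 rose and 5 fell with 2 doses of CDN2, and 14 rose and 0 fell with 2 doses of exoCDN2. The shares of all genes that changed in these comparisons, in the same order, were 3.14%, 2.62%, 30.6% and 11.3%, so that the count for 2 doses of CDN2 was not above that of all genes. With unloaded EVs 0 changed.

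The 6 targets of IRF3 all rose after 1 dose with 20 µg of CDN2 (median log2 fold change 4.99), exoCDN2 (4.73) and 100 µg of CDN2 (4.91), where the medians of all genes were -0.0035, -0.0237 and -0.0044. Isg15, a ubiquitin-like modifier, went from 30.5 and 31.7 CPM with PBS to 283.9 and 406.9 CPM with 20 µg of CDN2 and 309.7 and 306.4 CPM with exoCDN2. After 2 doses it was at 4.31 and 4.48 CPM with PBS, 997.3 and 655.1 CPM with CDN2 and 241.3 and 192.2 CPM with exoCDN2, and the difference between the agonists was -2.005 (SE 0.24, adjusted p = 0.001). With 2 doses of CDN2 6 of 6 rose, and with exoCDN2 5 of 6. The exception was Ifnb1, encoding interferon β, which is named because its values stood apart. It had 7 and 3 reads after 2 doses of exoCDN2, 185 and 40 after CDN2 and 0 in both PBS tumors. One dose of exoCDN2 gave 1206 and 866 reads. All of these tumors were collected 24 h after the last injection, so that induction before then was not measured. For tumors taken sooner after injection, the study reports similar interferon β after either dose of loaded agonist, but less after a second free dose. By the later time, it reports that little was left. Taking 3 reads over the PBS group as the floor and pooling the 2 treated tumors, Ifnb1 was at least 124-fold higher after 2 doses of CDN2, where the tumors were at 9.79 and 1.05 CPM, and at least 2.60-fold higher after exoCDN2. With those bounds the medians of the list were 6.94 for CDN2 and 5.19 for exoCDN2. The tumors with no stated amount, in which none of the 9 pathway genes changed, had 5 of these 6 targets higher than PBS.

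Of 17 genes for adaptors, kinase partners and the NF-κB arm, Irf7 rose in every agonist comparison with PBS. It encodes the interferon-inducible relative of IRF3. Its log2 fold change was 2.45 (SE 0.27, adjusted p = 0.00028) after 1 dose of CDN2 at 20 µg and 6.51 (SE 0.32, adjusted p = 4.1e-07) after 2. With exoCDN2 the values were 2.29 (SE 0.27, adjusted p = 0.00047) and 5.77 (SE 0.31, adjusted p = 6.8e-07). The 2-dose PBS tumors had 6.82 and 6.81 CPM of Irf7 and the 1-dose PBS tumors 26.3 and 30.4 CPM. The larger 2-dose folds thus start from a lower control, but treated tumors were also higher after 2 doses. With 20 µg of CDN2 Irf7 was at 131.7 and 178.6 CPM after 1 dose and 745.5 and 442 CPM after 2. With exoCDN2 it was at 133.8 and 144.4 CPM after 1 dose and 434.8 and 315.3 CPM after 2. Rela, the NF-κB subunit, rose with 1 dose of 20 µg of CDN2 (1.16, SE 0.21, adjusted p = 0.0087), where exoCDN2 gave 0.69 (SE 0.21, adjusted p = 0.11).

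Of 12 DNA sensors and cofactors, Ifi204, the mouse relative of human IFI16, rose with 1 dose of 20 µg of CDN2 (2.02, SE 0.39, adjusted p = 0.013) and of exoCDN2 (2.15, SE 0.39, adjusted p = 0.0098), and by 5.42 and 5.02 after 2 doses. Its PBS level was 15.7 and 19.0 CPM after 1 dose and 7.98 and 3.93 CPM after 2, also a lower control. Treated tumors were again higher after 2 doses. With 20 µg of CDN2 Ifi204 was at 50.1 and 90.8 CPM after 1 dose and 310.6 and 178.5 CPM after 2. With exoCDN2 it was at 81.1 and 73.0 CPM after 1 dose and 240.1 and 149 CPM after 2. Zbp1, a sensor of Z-form nucleic acid, was at 3.49 and 2.70 CPM with 2 doses of PBS and rose to 235.3 and 343.0 CPM with CDN2 and 426.7 and 256.7 CPM with exoCDN2. With 1 dose of PBS it was at 40.8 and 50.5 CPM, and it fell by 3.87 on the log2 scale (SE 0.46, adjusted p = 0.0009) from 1 to 2 doses of PBS, so that the 2-dose folds start from a lower control. After 1 dose Zbp1 rose with 20 µg of CDN2 (1.89), to 126.8 and 210.5 CPM, while exoCDN2 gave 0.83 (SE 0.40, adjusted p = 0.34). Prkdc, the catalytic subunit of DNA-PK, fell with 2 doses of CDN2 (-1.47, SE 0.45, adjusted p = 0.018), where its values were 3.55 and 15.4 CPM. Of 9 genes for clearance of DNA and nucleotides, Samhd1, a dNTP hydrolase, and Adar, which edits double-stranded RNA, rose in all 4 comparisons of 20 µg of CDN2 or exoCDN2 with PBS. Samhd1 rose by 1.35 (SE 0.20) and 1.52 (SE 0.20) after 1 dose and by 1.97 (SE 0.20) and 2.10 (SE 0.20) after 2, for CDN2 and exoCDN2 in that order, with adjusted p between 3.5e-05 and 0.0022. Its PBS level was 80.9 and 90.9 CPM after 1 dose and 47.8 and 53.65 CPM after 2.

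Of 22 genes for STING traffic and turnover, Trim30a, described as a brake that sends STING for degradation, rose in all 5 comparisons of a stated amount with PBS. With 1 dose it rose by 2.01 (SE 0.26, adjusted p = 0.0011) for 20 µg of CDN2 and by 2.22 for exoCDN2. With 2 doses it rose by 4.65 for CDN2 and by 4.89 (SE 0.30, adjusted p = 1.6e-06) for exoCDN2. Its PBS level was 31.25 and 31.04 CPM after 1 dose and 10.47 and 5.56 CPM after 2. The 2-dose folds thus start from a lower control, but treated tumors were also higher after 2 doses. With 20 µg of CDN2 Trim30a was at 119.6 and 130.8 CPM after 1 dose and 170.7 and 217.3 CPM after 2. With exoCDN2 it was at 141.6 and 149.9 CPM after 1 dose and 267.4 and 211.9 CPM after 2. Rhbdf2, which encodes the STING partner iRhom2, rose after 1 dose of 20 µg CDN2 (1.68, SE 0.19, adjusted p = 0.00043) and of exoCDN2 (1.77, SE 0.19, adjusted p = 0.00031). Npc1, a lysosomal cholesterol transporter, and Zdhhc15, a palmitoyltransferase, fell with 2 doses of CDN2. Npc1 was at 27.7 and 70.4 CPM there against 108.4 and 133.6 CPM with PBS.

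Of 13 further genes for transport or hydrolysis of cyclic dinucleotides, 12 were tested. Lrrc8b, a channel partner of Lrrc8a, fell with 2 doses of CDN2 (-1.03, SE 0.20, adjusted p = 0.0014), from 47.5 and 39.8 CPM to 15.5 and 25.5 CPM. Lrrc8e rose there from 0.143 and 0.132 CPM to 3.97 and 1.18 CPM. Gjb2, which encodes the gap junction protein connexin 26, was at 113.2 and 110.9 CPM with 1 dose of PBS, 102.5 and 67.2 CPM with 20 µg of CDN2, 42.8 and 44.4 CPM with 100 µg and 41.7 and 47.8 CPM with exoCDN2. It fell with 100 µg (-1.35, SE 0.23, adjusted p = 0.009) and with exoCDN2 (-1.33, SE 0.23, adjusted p = 0.0073), and after 2 doses it fell with CDN2 (-1.09, SE 0.23, adjusted p = 0.0026) and stood at 129.5 and 125.9 CPM with exoCDN2.

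**Figure D4:**
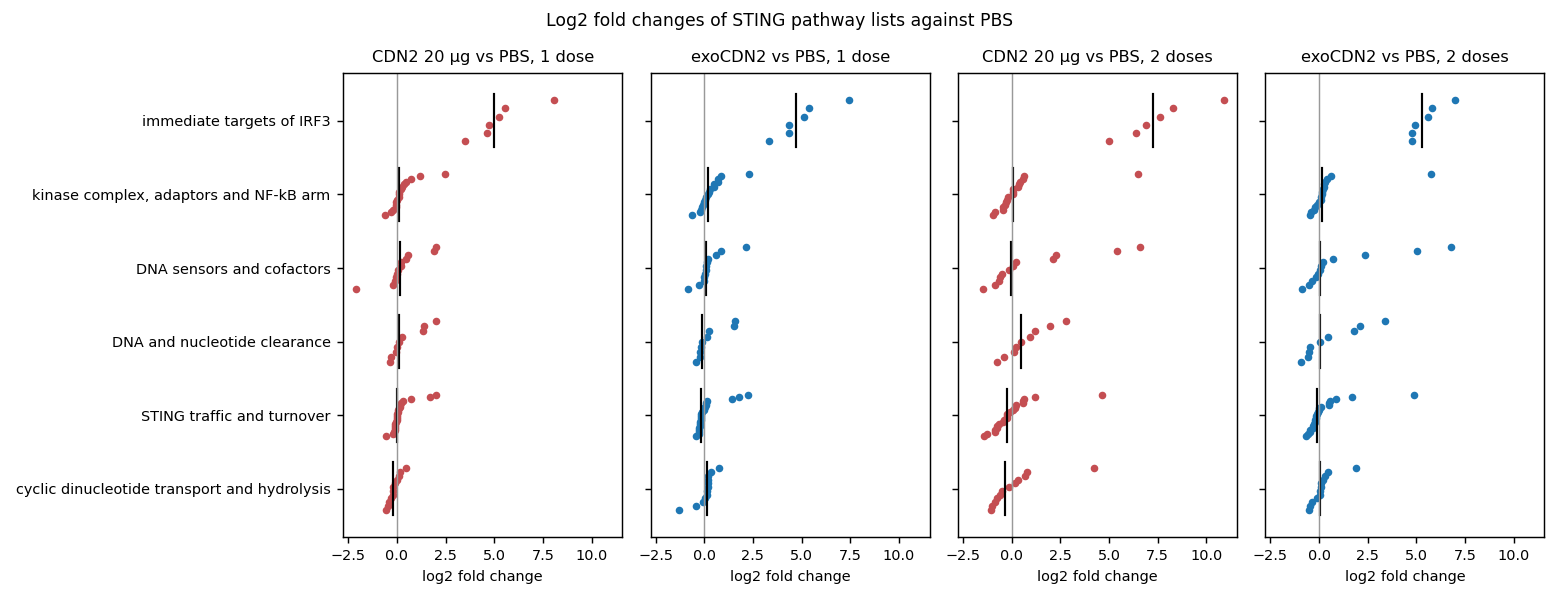
Log2 fold change against PBS (horizontal) of each tested gene of 6 pathway lists (vertical; points are genes, offset by rank, and black bars are list medians) in 4 comparisons of 2 tumors against 2. The targets of IRF3 all lie far to the right, with medians of 4.99 and 4.73 after 1 dose, whereas the other lists centre near 0 with a few genes to the right. Ifnb1 after 2 doses is drawn at its fitted value, which is no bound because PBS tumors had 0 reads.

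The genes whose log2 CPM followed each member most closely over the 18 tumors were named as a description only, since the tumors share groups and tissue content. Trex1 was nearest to Zfp36 (Pearson r = 0.981), which encodes an mRNA decay factor, then to Anxa7 (0.979) and Ccrl2 (0.978). Mb21d1 was nearest to the interferon gene Ifna2 (0.974), then to Nfkbie (0.960) and Pdzd2 (0.953), and Tbk1 was close to Parp8 (0.941) and Usp25 (0.936). Tmem173 was nearest to 9530082P21Rik (0.958), Vwa5a (0.929) and Tcirg1 (0.912), and Ikbke to Nfatc1 (0.901), Psmf1 (0.886) and Exoc3l4 (0.885). Irf3 was nearest to Fbxl6 (0.960), Ssu72 (0.960) and Ndufv2 (0.944). Enpp1 had the loosest neighbours, Fap (0.840), a fibroblast protease, and Ildr2 (0.804). Slc19a1 was nearest to Tmem201 (0.954), Pald1 (0.948) and Ttll12 (0.930), and Lrrc8a to Pkd1 (0.972) and Ttyh2 (0.963).

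To show the sequence before a gene that rose after 1 dose of exoCDN2 (Mb21d1), a gene that passed the p limit alone (Tbk1) and a gene that passed neither (Enpp1), the 250 bases upstream of each start are printed, from RefSeq on build GRCm38.p6 and free of annotated exons, 5′ to 3′ on the gene's strand. Capitals mark GAAA or TTTC, the repeated core of elements bound by interferon regulatory factors. All 3 genes lie on the minus strand, Mb21d1 with chr9:78443238-78443487, Tbk1 with chr10:121586795-121587044 and Enpp1 with chr10:24712160-24712409. The RefSeq start of Tbk1 is not that of the annotated transcripts, in none of which the first transcribed bases after this window were found.
Mb21d1: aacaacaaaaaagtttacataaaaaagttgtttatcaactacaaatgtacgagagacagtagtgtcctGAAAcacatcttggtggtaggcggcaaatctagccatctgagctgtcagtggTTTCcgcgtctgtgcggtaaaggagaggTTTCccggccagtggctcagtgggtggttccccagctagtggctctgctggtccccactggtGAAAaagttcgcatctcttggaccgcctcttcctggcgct
Tbk1: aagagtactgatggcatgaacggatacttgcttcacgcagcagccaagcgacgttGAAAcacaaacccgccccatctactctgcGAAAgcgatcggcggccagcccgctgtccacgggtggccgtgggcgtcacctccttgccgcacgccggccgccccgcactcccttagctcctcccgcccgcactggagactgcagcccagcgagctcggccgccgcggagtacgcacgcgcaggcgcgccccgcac
Enpp1: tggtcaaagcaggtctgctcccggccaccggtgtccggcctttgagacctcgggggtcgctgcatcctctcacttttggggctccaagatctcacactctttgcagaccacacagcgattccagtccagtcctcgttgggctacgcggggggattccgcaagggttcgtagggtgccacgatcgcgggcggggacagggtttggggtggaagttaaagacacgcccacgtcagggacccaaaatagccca
The Mb21d1 window holds 4 such cores, that of Tbk1 2 and that of Enpp1 0, where 86.4% of 32851 promoters of this length hold at least 1 and the median is 2. Among the other members, Trex1, which also rose, holds 1 and 2 in its 2 windows. Irf3 and Ikbke, which did not change, hold 4 each, Lrrc8a holds 1 and Slc19a1 0 in both windows. A link of the number of cores with the change was not tested. The longer interferon-stimulated element core GAAANNGAA was searched on both strands, with the STAT element TTCNNNGAA and the NF-κB element GGGNNTTTC. None of the 3 was found in the 10 windows of the 8 members that matched, whereas 7.13%, 7.02% and 3.72% of all promoters held them. Some of these windows, and the cores counted in them, include annotated exons. Exons covered all 250 bases for Lrrc8a, 181 for Irf3, 43 for Ikbke, 185 and 250 for Trex1 and 55 in 1 Slc19a1 window. The absence of these letters from 250 bases says nothing of binding elsewhere.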

How the data were processed

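RNA of 18 tumors was sequenced by the authors as paired reads on an Illumina HiSeq. Reads were filtered, aligned to GRCm38 (mm10) with OSA and assigned to Ensembl genes by RSEM in OmicSoft ArraySuite. The deposited values are expected counts per gene, not normalized, with totals of 21608895 to 65983630 per tumor and between 8.75% and 12.7% of values not whole. Reads shared by overlapping genes are split by a model, and use of strand is not given in the sources used here. No 2 tumors had identical values.

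Counts were rounded and tested with edgeR 4.0.16 (R 4.3.3), a quasi-likelihood fit with TMM factors over 16 tumors of 8 groups. Genes were kept by filterByExpr (minimum count 10, total 15), leaving 16927. The 2 tumors with no stated amount were tested in a fit of all 18 (17110 genes). A gene changed where the Benjamini-Hochberg adjusted p was under 0.05 and the ratio over 2, the limits of the study's methods. Log2 fold changes are given with SE, and CPM with TMM factors over 18 tumors. With 2 tumors against 2, p-values measure the spread between these tumors only, with the spread shared over groups. Likeness used log2 CPM with a prior count of 2. Statistical code was tested on simulated data. The members and the pathway lists were chosen with earlier results of these data known. Named genes are the 9 members, from each list at most the 2 most significant higher and 2 lower genes in the 20 µg CDN2 and exoCDN2 comparisons with PBS (Ifnb1 was added after its values were seen), and the 3 genes most like each member, of which some are not reported here. Alternatives were DESeq2 1.42.0, RLE factors, no filter, no ratio limit, other sample sets, a replicate block and leaving out each tumor. Gene positions and overlaps are from GENCODE vM21, and promoters from RefSeq.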

Additional observations from a re-analysis of the deposited data

Results flagged for a closer look

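Of the 9 genes, Mb21d1 passed edgeR's test of whether the change over PBS differed between numbers of doses. For exoCDN2 the change after 2 doses was lower than that after 1 dose by a log2 difference of -1.66 (SE 0.34, edgeR interaction contrast, adjusted p = 0.012). The call was lost without 1-dose exoCDN2 replicate 1 (adjusted p = 0.0536), 1-dose PBS replicate 2 (0.0619) or 2-dose exoCDN2 replicate 1 (0.0707). For CDN2, Trex1 was also called by DESeq2 (log2 difference 1.59) and by edgeR with no filter on low counts (1.48). Both 1-dose exoCDN2 tumors (45.2 and 43.2 CPM) were above both 2-dose tumors (10.9 and 13.4 CPM), while PBS was at 11.2 and 10.97 CPM after 1 dose and 10.2 and 9.05 CPM after 2. The number of doses and the day of collection cannot be told apart beyond what PBS tumors share.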

How the results depend on the processing

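With 2 tumors a group, leaving out 1 tumor moved the count of changed members between 1 and 2 for 1 dose of 20 µg CDN2, of exoCDN2 and of exoCDN2 against EVs, 0 and 2 for 100 µg CDN2, 1 and 4 for 2 doses of CDN2, 0 and 2 for exoCDN2 against CDN2 after 2 doses, 0 and 1 for the second against the first dose of exoCDN2, and 0 and 3 for that of CDN2. No ratio limit gave 6 for 2 doses of CDN2 and 4 for exoCDN2. Fitting the compared groups alone gave 1 for 2 doses of CDN2 and 0 for exoCDN2 against CDN2. DESeq2, and likewise no filter, gave 1 for the second against the first dose of CDN2, and no filter gave 1 for the tumors with no stated amount. In the other 97 of 104 recomputed counts, with no tumor left out, the count was within 1.5 times. Of 347 recomputed log2 fold changes with no tumor left out, 341 kept direction and side of the limits, and none changed sign.

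With 1 tumor left out, 202 of 232 kept direction and side of the limits, 17 no longer passed both limits, 7 newly passed them and 6 changed sign. Mb21d1 for 100 µg against 20 µg ranged from -0.26 to 0.17, Tmem173 for exoCDN2 against CDN2 after 2 doses from -0.066 to 0.25 (also -0.038 without exoCDN2 replicate 1), Slc19a1 for the same from -0.066 to 0.58, Trex1 for the second against the first dose of exoCDN2 from -0.22 to 0.66, and Lrrc8a for 2 doses of exoCDN2 from -0.44 to 0.18. The causes were not tested.

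Replicate numbers pair no tumors in the labels, and tumors of the same number did not deviate together (mean correlation 0.014 over 36 pairs of groups, lowest -0.183, highest 0.324, 7 over 0.1). A replicate block left every count at both limits as reported, for example 2 for 1 dose of exoCDN2, and with it Trex1 for 2 doses of CDN2 was 4.85. At the p limit alone Tbk1 was lost under the block for 2 doses of CDN2 (adjusted p = 0.0544) and for exoCDN2 against EVs (0.0659). Depth limits Enpp1 most, at 97 to 301 reads.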
